A study of Drosophila melanogaster with 4 samples.

Results

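Isolated H2Av islands are stretches of H2Av enrichment that stand alone on the chromosome, with a long run of sequence on either side in which no other enrichment was called. They were chosen from the authors' combined list, the list of enriched regions made for the set of both replicates, on the autosomal arms 2L, 3L and 3R. An island was narrower than 7000 bp, lay at least 20 kb from the nearest region on each side, and had its midpoint outside the outermost sequence of the arm. That outermost sequence was the first 3 Mb and last 1.5 Mb of 2L and 3L, and the first 1.5 Mb and last 3 Mb of 3R. The rule returned 164 islands of the 4698 regions in the combined list, or 3.49%, and of the 1923 regions in the inner arms, or 8.53%. Width, gaps and position in the combined list chose the islands, so these values describe them and were not tested. The score and the replicate lists come from the same reads, so comparisons with them are descriptions too.

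H2Av is the histone H2A variant of Drosophila, where a single protein does the work that H2A.Z and H2A.X share in many other animals. Like H2A.Z, it is placed into nucleosomes by chromatin remodelling enzymes, and it is best known from the nucleosomes near the starts of active genes. Like H2A.X, it is phosphorylated at DNA breaks, and it has also been described in heterochromatin.

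The chromatin came from S2-DRSC cells, a male cell line derived from late embryos, so the profile is that of a cultured line and not of a tissue. Every culture, the inputs included, had taken up double-stranded RNA that targets GFP, which is absent from the fly genome, at 50 µg and then 200 µg. The antibody used to pull down H2Av, number 9751, was a polyclonal one made in rabbit against a peptide and purified by affinity. The series has 2 immunoprecipitated libraries, here replicates 1 and 2, and 2 input libraries. Only region lists of the immunoprecipitated libraries and of their set were used here, with 4198 regions in replicate 1 and 4070 in replicate 2. The description field of replicate 2 reads as input, and that of input replicate 1 names the antibody and input both. Titles and source names do not conflict for any library, and the titles were followed. The lists give no counts, so depth is unknown. No label says that the replicates came from separate cultures, so their spread may be technical. Positions are those of FlyBase release 5. Genes and bases at the islands were not analysed here, because no sequence or annotation of that release was used.

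The islands were spread over all 3 arms, with 50 on 2L, 49 on 3L and 65 on 3R. Per length of inner arm this was 2.70 per Mb on 2L, 2.44 on 3L and 2.78 on 3R. They made up 9.77% of the inner-arm regions of 2L, 7.40% of those of 3L and 8.68% of those of 3R. Their density was thus close to even between the arms, and no arm lacked them. All islands together covered 549.6 kb, which is 6.15% of the H2Av-enriched sequence of the inner arms.

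An island was typically about 3 kb wide. The median width was 3017 bp, with an interquartile range of 2127 to 4314 bp, and the widths ran from 1005 to 6983 bp. Medians by arm were 2960 bp on 2L, 2949 bp on 3L and 3345 bp on 3R. The authors' score, deposited with no stated scale, had a median of 1.50 over the islands, with an interquartile range of 0.58 to 1.94. Median scores by arm were 1.51 on 2L, 1.40 on 3L and 1.52 on 3R. The arms differed little in either measure beside the range within each arm, since scores ran from 0.26 to 2.48 on 2L, from 0.000987 to 2.76 on 3L and from 0.15 to 2.63 on 3R.

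Width and score rose together among the islands. Across the 164 islands the Spearman correlation of width and score was 0.83, which describes regions that share the same libraries. In the 37 islands narrower than 2 kb the median score was 0.33. It was 1.18 in the 44 islands of 2 to 3 kb, 1.66 in the 31 of 3 to 4 kb, 2.03 in the 25 of 4 to 5 kb and 2.10 in the 27 of 5 to 7 kb. The rise was therefore steep below about 4 kb and slight above it. Only 4 of the 83 islands of 3 kb or more scored below 1, a set picked out after the values were seen. The widest of them, on 3R from 11725954 to 11730460, was drawn 4507 bp wide in the combined list, where it scored 0.63. Replicate 1 called 2540 bp of it and replicate 2 called 2022 bp, so both replicates held a shorter region there.

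**Figure D1:**
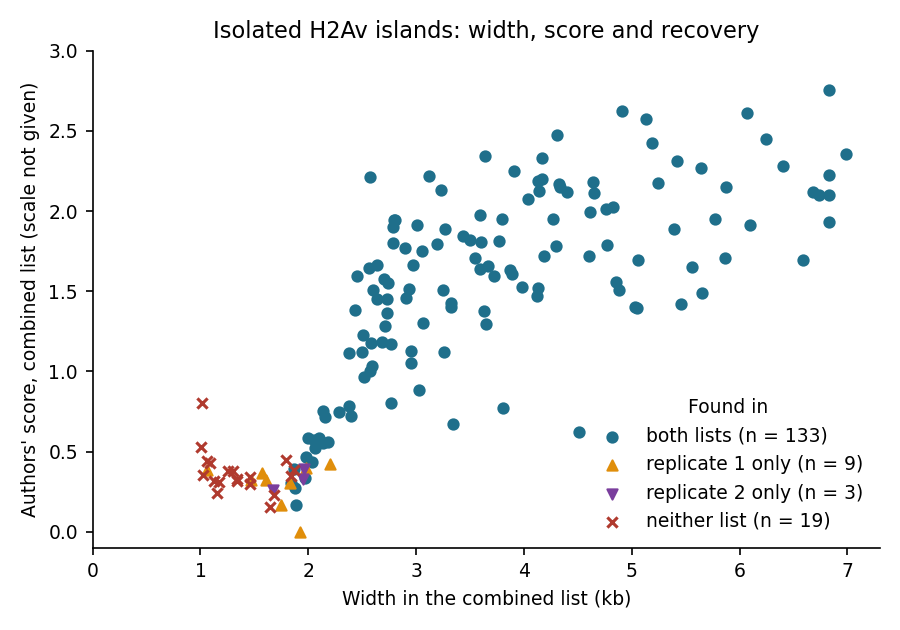
Width in the combined list (x axis, kb) against the authors' score in that list (y axis) for the 164 islands, 1 point each; colour and shape show which replicate lists held the island. Islands found in neither list or in 1 list only sit at the lower left, at 2203 bp or less, while those found in both reach 6983 bp and a score of 2.76.

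Most islands were called again in both replicates. Replicate 1 held 142 of the 164 (86.6%, 95% Wilson interval 80.5 to 91.0) and replicate 2 held 136 (82.9%, 76.4 to 87.9), counting any overlap of at least 1 bp. Both lists held 133 islands (81.1%, 74.4 to 86.4), and among all regions of the inner arms 82.0% were in both. Another 9 islands were in replicate 1 only and 3 in replicate 2 only. Neither list held 19 islands (11.6%, 7.54 to 17.4), against 11.1% of all inner-arm regions. Recovery of the islands was thus near the level of all regions around them. Those include 317 regions of 7000 bp or more, all of them in both lists. Among inner-arm regions under 7000 bp, 78.5% were in both and 13.3% in neither, values within the intervals of the islands. The intervals treat regions as independent and cover counting error only.

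Recovery rose with the width and with the score of the island, which rise together and cannot be told apart here. Of the 127 islands of 2 kb or more, 126 were in both replicate lists, while of the 37 narrower ones 7 were. All 108 islands that scored at least 1 were in both lists, as were 704 of the 705 clustered regions described further on (99.9%) that scored as high. Of the 56 that scored below 1, 25 were in both (44.6%), 12 in 1 list and 19 in neither (33.9%). Clustered regions that scored below 1 were in both lists in 38.0% and in neither in 39.3%. For the intermediate regions, also described further on, these shares were 57.4% and 21.3%. The interval of the 56 islands for both lists, 32.4 to 57.6, takes in the shares of both other sets. That for neither list, 22.9 to 47.0, takes in the share of clustered regions only. Under 2 kb, 6.67% of clustered and 22% of intermediate regions were in both lists, so low recovery there was not particular to islands. Islands found in both lists had a median width of 3593 bp and a median score of 1.65. Those in neither list had a median width of 1303 bp and a median score of 0.35, and none was wider than 1869 bp. The smallest region in either replicate list spanned 1301 bp, whereas the combined list went down to 1001 bp. Of the 10 islands below 1301 bp, 9 were in neither list and 1 was in replicate 1 only. The part of this difference in smallest width in the missing islands was not tested.

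The narrow islands that both replicates did hold were all close to 2 kb wide. The 7 of them, picked out after the values were seen, measured 1837 to 1999 bp, with combined scores of 0.16 to 0.58. The lowest of these was on 3R from 17404866 to 17406748, with a combined score of 0.16, and 0.23 and 0.22 in replicates 1 and 2. On 3L, the island from 19170166 to 19172138 scored 0.33, with 0.20 in replicate 1 and 0.48 in replicate 2. The replicate scores were close in the first case and apart in the second. These 7 were picked because both lists held them, and 19 of the 37 islands under 2 kb were in neither list.

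Where both replicates held an island, they drew it at nearly the same place. Over the 133 islands the starts in the replicate lists lay a median of 66 bp apart and the ends 66 bp apart. The widths in the replicates differed by less than 10% of their mean in 105 of the 133 (78.9%). The other inner-arm regions found in both lists were much alike in this, with starts 85 bp and ends 81 bp apart and 77.9% of widths within the same limit. Median widths were 3159 bp in replicate 1 and 2975 bp in replicate 2 (3067 ± 130 bp, SD, n = 2 lists). The combined list drew 129 of the 133 wider than replicate 1 did and 132 wider than replicate 2 did. A replicate's region measured a median of 96.0% of the combined width in replicate 1 and 94.2% in replicate 2. The other inner-arm regions found in both lists were alike in this, at 95.4% and 94.3%. Of these 1444, the combined list drew 1376 wider than replicate 1 did and 1405 wider than replicate 2 did. No island was split into several regions in either replicate. Of the 1145 clustered regions, 11 were split in replicate 1 and 14 in replicate 2, and of the 297 intermediate ones 3 and 5. Splits were thus rare in each of these sets.

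Scores of the shared islands ran a little higher in replicate 2. The median was 1.68 in replicate 1 and 1.80 in replicate 2 (1.74 ± 0.08, SD, n = 2 lists). Replicate 2 was higher in 105 of 133 islands (78.9%), with a median difference, replicate 2 minus replicate 1, of 0.12. The same difference was 0.13 over the other inner-arm regions found in both lists, so the shift was of like size there. The order of the islands was close to the same in both, with a Spearman correlation of 0.972 across the 133 islands, a description of regions that share their libraries. The islands with the largest differences, picked out after the values were seen, lay at mid scores. On 3L, the island starting at 16486664 scored 1.35 in replicate 1 and 0.80 in replicate 2. On 3R, the one starting at 18916522 scored 0.98 in replicate 1 and 1.49 in replicate 2.

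**Figure D2:**
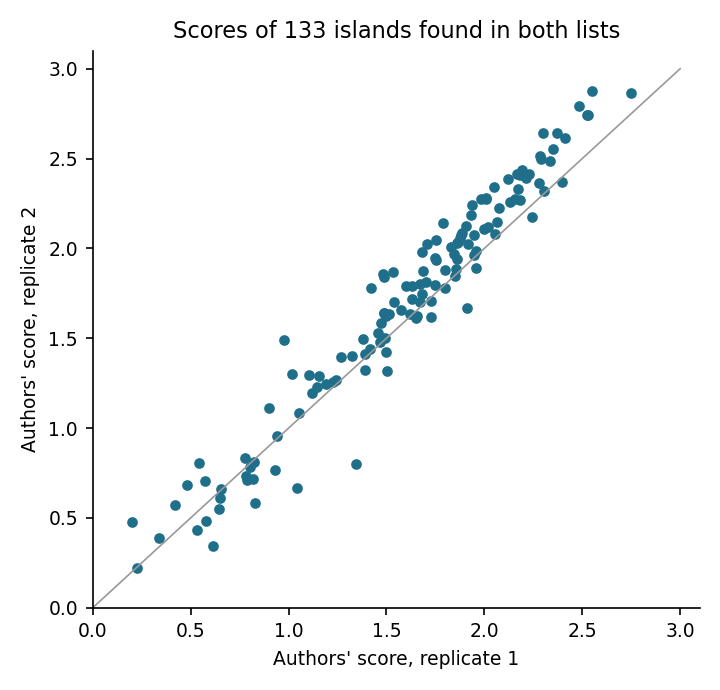
Authors' score in replicate 1 (x axis) against replicate 2 (y axis) for the 133 islands found in both lists, 1 point each; the line marks equal scores. Of these islands, 105 lie above the line, and the points stay close to it from scores near 0.2 to above 2.7.

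The 2 highest-scoring islands of each arm were found in both replicates and lay between 4 and 7 kb in width. The top score belonged to an island on 3L from 18613538 to 18620370, 6833 bp wide, with a combined score of 2.76, and 2.75 and 2.86 in replicates 1 and 2. Empty sequence of 158.4 kb lay to its left and 39.1 kb to its right. The second of 3L, from 19436020 to 19442264, scored 2.45, with 2.49 in replicate 1 and 2.79 in replicate 2. Its combined width was 6245 bp, and replicate 1 drew it at 6115 bp but replicate 2 at 4577 bp, so replicate 2 held the shorter call with the higher score.

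On 3R, the island from 21674270 to 21679174 spanned 4905 bp and scored 2.63, with 2.55 and 2.88 in replicates 1 and 2. The next, from 12973250 to 12979320, spanned 6071 bp and scored 2.61, with 2.53 and 2.74. It bordered 231.2 kb without a region on its right. On 2L the highest score, 2.48, belonged to an island from 5008488 to 5012798 that was among the least isolated, with gaps of 20.7 and 24.9 kb. The second of 2L, from 5798978 to 5804396, scored 2.31, with 2.29 in replicate 1 and 2.50 in replicate 2. High scores therefore occurred both beside long empty stretches and close to the gap limit.

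The widest island of all lay on 3L from 18736618 to 18743600, with a combined width of 6983 bp and a score of 2.36, and replicates 1 and 2 drew it at 6544 and 6726 bp. The widest of 2L, from 5719286 to 5726118, spanned 6833 bp and scored 1.93. On 3R the widest, from 20540678 to 20547414, spanned 6737 bp and scored 2.10. All of these were in both replicate lists. The narrowest islands stood at the opposite end in recovery. On 2L the narrowest ran from 7856384 to 7857388, a span of 1005 bp with a score of 0.53. On 3R it ran from 23814614 to 23815638, spanning 1025 bp with a score of 0.36, and on 3L from 13221816 to 13222876, spanning 1061 bp with a score of 0.44. None of these was in either replicate list.

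The islands missing from both lists scored low with few exceptions. The highest, on 2L from 20175634 to 20176650, spanned 1017 bp and scored 0.80. It was followed by the 1005 bp island of 2L named above and by one on 3L from 7087170 to 7088958, with 1789 bp and a score of 0.45. Among islands in 1 replicate list only, the highest was on 2L from 19388110 to 19390312, which scored 0.42 in the combined list and 0.62 in replicate 1. The highest of those in replicate 2 only was on 3L from 20983882 to 20985838, with 0.39 in the combined list and 0.41 in replicate 2.

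The lowest-scoring island, named after its value was seen, carried opposite calls in the replicates. It lies on 3L from 3417266 to 3419188 and scored 0.000987 in the combined list, the lowest value in the inner arms. Replicate 1 listed it as enriched, with 1896 bp and a score of 0.11. Replicate 2 listed no enriched region there but held a record typed as depleted from 3417313 to 3419170, with a score of -0.03, the single record of that type in the lists. The position was thus marked in both libraries, with a score near 0 in each.

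The empty sequence beside the islands was often far longer than the rule required. The smaller of an island's gaps had a median of 36.1 kb, with an interquartile range of 26.6 to 58.9 kb and a highest value of 235.3 kb. The larger had a median of 90.3 kb, from 50.9 to 163.6 kb between the quartiles, and reached 471.8 kb. The larger gap was a median of 1.79 times the smaller, a ratio that is at least 1 by construction. Together the gaps that border islands took up 23.2 Mb, or 43.7% of all sequence of the inner arms that lay outside enriched regions.

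**Figure D3:**
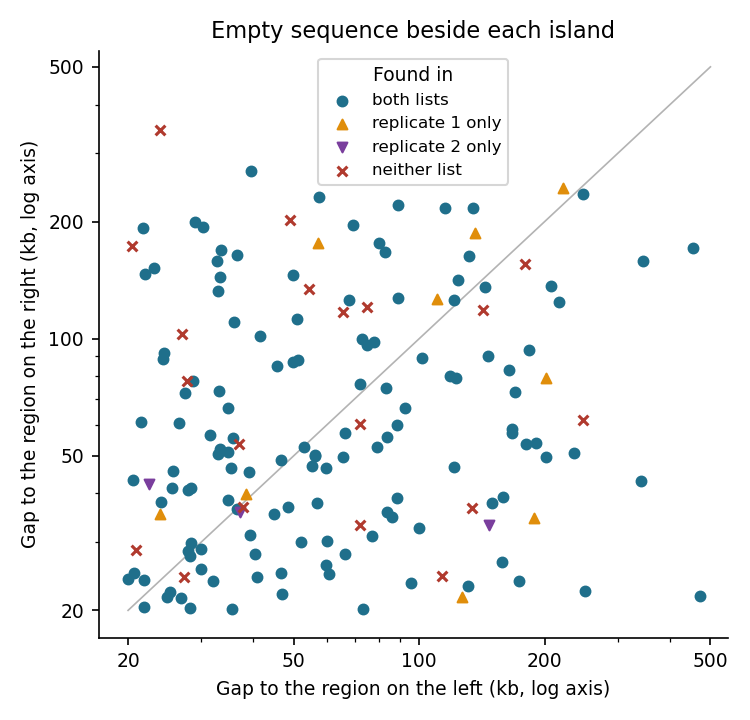
Length of the empty sequence to the left (x axis) and right (y axis) of each of the 164 islands, in kb on log axes; colour and shape show which replicate lists held the island, and the line marks equal gaps. Points spread over the whole field from 20 kb to 471.8 kb, and islands in neither list lie among the rest.

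Islands with the most room around them were somewhat narrower and lower. In the 56 islands whose smaller gap was 20 to 30 kb, the median width was 3249 bp and the median score 1.65. In the 52 with 30 to 50 kb the medians were 3294 bp and 1.51, in the 40 with 50 to 100 kb 2665 bp and 1.41, and in the 16 with at least 100 kb 2579 bp and 1.08. Across all islands the Spearman correlation of score with the smaller gap was -0.09, so the trend was slight. Recovery in both lists was 82.1%, 82.7% and 82.5% in the first 3 of these sets. In the last it was 68.8%, or 11 of 16, with a Wilson interval of 44.4 to 85.8 that takes in the other values.

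The most isolated island lay on 3L from 10216748 to 10219342, with 247.2 kb of empty sequence on the left and 235.3 kb on the right. It spanned 2595 bp and scored 1.03, with 1.05 in replicate 1 and 1.09 in replicate 2, so the replicates and the combined list gave nearly one value. The second of 3L, from 18452934 to 18455090, had gaps of 344.2 and 158.4 kb and scored 0.71, with 0.78 and 0.73 in the replicates. On 2L, the island from 15498306 to 15500284 had gaps of 221.5 and 243.5 kb. It scored 0.40 in the combined list and 0.58 in replicate 1, and was not in the list of replicate 2.

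Also on 2L, the island from 17962370 to 17965170 stood between gaps of 454.2 and 171.3 kb. It spanned 2801 bp and scored 1.94, with 1.86 and 2.03 in the replicates, the highest combined score among the 16 islands with at least 100 kb on both sides. On 3R, the island from 13845686 to 13849122 had gaps of 207.3 and 136.7 kb and scored 1.85, with 1.79 in replicate 1 and 2.14 in replicate 2. The island from 1972556 to 1974158 had gaps of 135.9 and 187.4 kb, scored 0.32 and was in replicate 1 only, with a score of 0.45. The most isolated islands thus covered nearly the whole range of scores below 2.

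Islands neighboured one another at times. While 84 islands had no other island as a direct neighbour, 24 runs held 2 consecutive islands, 8 held 3 and 2 held 4. On 2L, a run of 4 spanned 337.0 kb from 8995838 to 9332816. Its islands scored 1.95, 2.13, 1.71 and 1.75 from left to right in the combined list, and all were in both replicates, with scores of 1.68 to 2.30 in replicate 1 and 1.87 to 2.32 in replicate 2. On 3R, a run of 4 spanned 350.6 kb from 22012914 to 22363516 with scores of 1.65, 0.31, 1.45 and 0.67. Its second island, 1175 bp wide, was in neither replicate list. The run of 2L was even in score, and that of 3R was not.

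Of the 328 regions that lay at the far end of an island's gaps, counted once per gap, 92 were islands (28.0%) and 38 were at least 7000 bp wide (11.6%). Another measure of their setting is that 148 (45.1%) had a region of their own within 5 kb. Their median score was 1.70, and 29.9% scored below 1, against 1.67 and 30.7% for all 1923 inner-arm regions. Of those 1923, 164 were islands (8.53%), 317 were at least 7000 bp wide, and 1145 were narrower with a region within 5 kb. By the rule, each region at the far end of a gap had at least 20 kb free on that side. The shares of islands and of regions with a close neighbour are thus partly fixed by the choice.

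In windows of 1 Mb across the inner arms the number of islands ran from 0 to 8, with a median of 2. Of 61 windows, 4 held none and 9 held 5 or more. The fullest lay on 3L from 19000001 to 20000000, where 8 islands stood among 45 regions that covered 18.0% of the window. A window on 3R from 21500001 to 22500000 held 6 islands among only 14 regions, with 6.57% covered. Windows without islands were 2 on 3L and 2 on 3R. Across the 61 windows the Spearman correlation of island number with the share of sequence covered was -0.14, a description of windows that share the same libraries. Islands thus occurred in windows rich and poor in H2Av alike.

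Each inner arm was also split into 3 parts of equal length. The parts nearest the telomeres held 65 islands, the middle parts 53 and those nearest the centromeres 46. These were 9.54%, 9.17% and 6.93% of the regions there. Both replicate lists held 53 of the 65, 48 of the 53 and 32 of the 46, or 81.5%, 90.6% and 69.6%, and the median scores were 1.52, 1.58 and 1.34. The parts were drawn after the members were known, and the differences were not tested. Recovery was not worked out by part for all inner-arm regions, of which 82.0% were in both lists over the 3 parts together. Whether the values by part are particular to islands therefore cannot be told.

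Islands were set beside clustered regions, which lie in the same inner arms, are also under 7000 bp, and have another region within 5 kb on at least 1 side. There were 1145 clustered regions, and 297 intermediate ones had their nearest region at 5 kb or more without meeting the island rule. The islands had a lower median width, at 3017 bp against 3421 bp in clustered and 3229 bp in intermediate regions. Median scores were 1.50 in islands, 1.51 in clustered and 1.55 in intermediate regions. Scores below 1 were held by 56 islands (34.1%, 95% Wilson interval 27.3 to 41.7), 38.4% of clustered regions (35.7 to 41.3) and 31.6% of intermediate ones (26.6 to 37.1), and by 30.7% of all inner-arm regions. Both replicate lists held 81.1% of islands, 76.1% of clustered regions (73.5 to 78.5) and 86.2% of intermediate ones (81.8 to 89.7). The share fell in no steady order with isolation, and the interval of the islands overlapped those of both other sets. The sets were chosen by position in the same data, and the differences were not tested. The difference in median score, island minus clustered, was -0.02, and it changed sign to 0.058 when clustered regions had to have a neighbour within 2 kb. With neighbours within 5 kb on both sides, the difference in median width went from -404 to -628 bp.

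The distribution of scores had a low and a high part in islands as in clustered regions, but at other values. Among islands, the fullest low bin was 0.2 to 0.4, with 26 of 164 (15.9%), and 13 (7.93%) lay between 0.4 and 0.6. Among clustered regions the order was the other way round, with 108 (9.43%) between 0.2 and 0.4 and 230 (20.1%) between 0.4 and 0.6. At the high end islands were fullest between 1.6 and 1.8, with 20, and clustered regions between 2 and 2.2, with 117. The median of scores of at least 1 was 1.79 in islands and 1.96 in clustered regions, and that of scores below 1 was 0.39 and 0.47. Both parts of the distribution therefore lay lower in islands than in clustered regions, though the medians over all scores were close. Intermediate regions had corresponding medians of 1.76 and 0.44, also below those of clustered regions, so the lower values were not particular to islands.

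**Figure D4:**
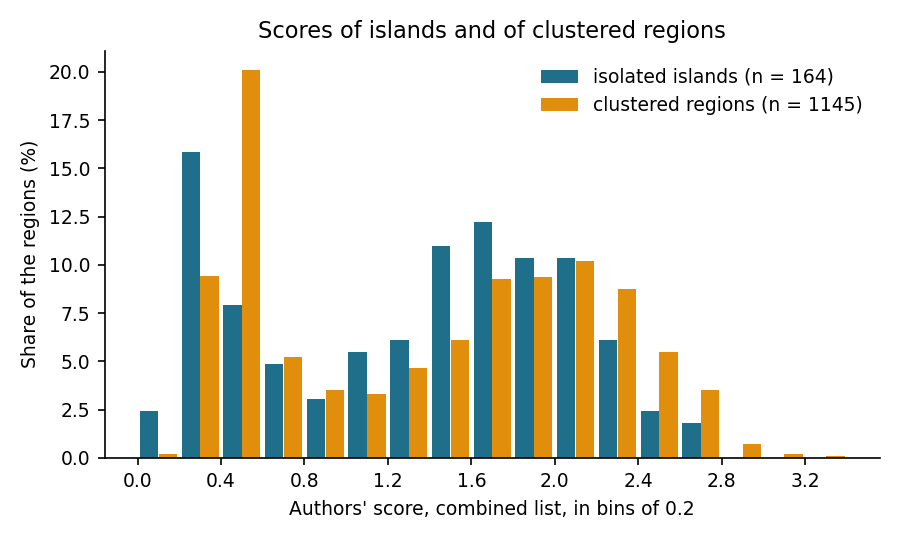
Share of regions (y axis, %) in bins of 0.2 of the authors' score in the combined list (x axis) for the 164 islands and the 1145 clustered regions. The low part is fullest at 0.2 to 0.4 in islands and at 0.4 to 0.6 in clustered regions, and the high part at 1.6 to 1.8 and at 2 to 2.2.

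Among the width bands, islands of 2 to 3 kb differed most from clustered regions. In that band 43 of 44 islands were in both replicate lists (97.7%, 95% Wilson interval 88.2 to 99.6), against 157 of 212 clustered regions (74.1%, 67.8 to 79.5). The median score in the band was 1.18 in islands and 0.61 in clustered regions. The corresponding intermediate regions were in both lists in 75 of 76 cases (98.7%, 92.9 to 99.8), with a median score of 0.92. Below 2 kb, 18.9% of islands (9.48 to 34.2) and 6.67% of clustered regions (4.08 to 10.7) were in both. Above 3 kb all islands and at least 97.8% of clustered regions in each band were. At matched score the sets lay closer: between 0.5 and 1, 18 of 20 islands were in both lists (90.0%, 69.9 to 97.2), against 70.8% of clustered regions (63.9 to 76.9). The share of intermediate regions there was 94.3% (81.4 to 98.4). Recovery above that of clustered regions in these bands was thus shared by islands and intermediate regions.

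**Figure D5:**
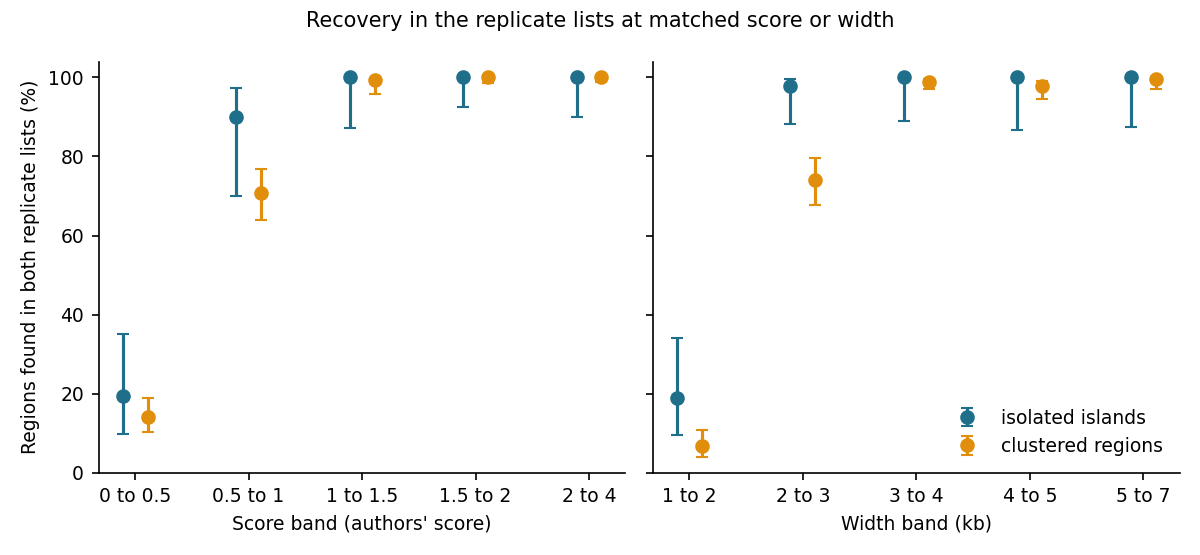
Share of regions found in both replicate lists (y axis, %) by band of the authors' score (left) and of width in kb (right), for islands and clustered regions; bars are 95% Wilson intervals. The widest separation is at 2 to 3 kb, at 97.7% against 74.1%, and in both panels islands and clustered regions meet near 100% in the upper bands.

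The combined list was made for the same replicates that were read against it. To read islands in a library that had no part in choosing them, the rule was also applied to each replicate list alone. Replicate 1 then gave 172 islands, of which 163 were in replicate 2 (94.8%, 95% Wilson interval 90.4 to 97.2), against 94.2% of all its inner-arm regions. Replicate 2 gave 183 islands, of which 179 were in replicate 1 (97.8%, 94.5 to 99.1), against 97.0% of its inner-arm regions. Recovery of islands was again near that of all regions, which here too include those of 7000 bp or more.

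Most islands chosen in one library were isolated in the other as well. Of the 172 islands of replicate 1, 158 also met the whole rule in replicate 2 (91.9%, 86.8 to 95.1), and of the 183 of replicate 2, 158 did so in replicate 1 (86.3%, 80.6 to 90.6). Among all inner-arm regions the shares were 179 of 1774 (10.1%) and 164 of 1746 (9.39%). Among clustered regions they were 0.88% and 0.40%. Regions that are not islands fail the rule in their own list, so their shares are low by construction. Most regions of every kind were in both lists, so the gaps between them were largely shared too.

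The contrast at 2 to 3 kb was smaller when islands were chosen in one replicate and read in the other. Islands of that width in replicate 1 had a median score of 1.48 in replicate 2, against 1.25 for clustered regions, and 98.2% (90.4 to 99.7) against 92.3% (87.9 to 95.2) were found there. Chosen in replicate 2 and read in replicate 1, the medians were 1.43 and 1.25, and 70 of 70 islands and 96.5% of clustered regions (93.0 to 98.3) were found. The direction was that of the combined list in both readings, but the intervals overlapped.

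The combined list held more regions than either replicate list and fewer islands. Of the 172 islands of replicate 1, 31 were not islands in the combined list. In 2 of these the combined region was 7000 bp or wider, and in 29 a neighbour lay within 20 kb. Of the 29 neighbours, 23 were in neither replicate list. Of the 183 islands of replicate 2, 47 were not islands in the combined list, and in 44 of them neighbours lay within 20 kb. Of these 46 neighbours, 27 were in neither replicate list. Among all inner-arm regions 11.1% were in neither. An island of a replicate has no other region of that list within 20 kb. Its neighbours here were therefore largely bound to be missing from that list, and the counts describe the choice. In the other direction, 1 region of replicate 1 and 0 of replicate 2 lay in an island's gaps without a counterpart in the combined list.

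The limits of the rule cut through regions of like kind. Just under 7000 bp stood the 6983 bp island of 3L and the 6833 bp islands of 2L and 3L named above. Just over it stood a region on 2L from 5323752 to 5330776, with 7025 bp and a score of 1.83, which replicate 1 drew at 6273 bp and replicate 2 at 6749 bp. In all, 10 regions met the rule but for their width, with a median score of 2.02, and all 10 were in both replicate lists. At the gap limit, the closest island inside was on 3L from 10653344 to 10658374, with 20.03 kb and a score of 1.40. The closest regions outside were a pair on 3L separated by 19.9 kb, from 14529870 to 14531974 with a score of 0.75 and from 14551880 to 14555782 with a score of 1.69.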

How the data were processed

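The authors deposited lists of significantly enriched regions, each with a start, an end and a score, for replicate 1, replicate 2 and the replicate set. The scale of the deposited score is not stated by the authors. Per the submitters' processing notes, Bowtie 0.12.7 was among the tools. Per the file headers, coordinates are of FlyBase release 5. The caller and threshold, any use of input, and how the combined list was made were not given in the sources used here.

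Gaps are the bases between a region and its neighbours in the same list. Overlap of at least 1 bp counted as found, and replicate values are those of the largest overlap. The single-replicate medians and differences in the closing section instead take the largest width or score among the overlapping regions. For islands this is the same, since none was split. Shares have 95% Wilson intervals, and no significance test was run. Steps were tested on simulated data. Python 3.11.15, NumPy 2.4.6, pandas 2.3.3, SciPy 1.17.1 and matplotlib 3.10.9 were used. The members and lists were chosen with earlier results of these data known. Named islands are, per arm, the 2 most isolated, the 2 highest in score, the widest and the narrowest, with those at the limits and the 3 highest in neither list or in 1. Of the 3 highest in 1 list, the remaining island is the one on 2L named as most isolated. Planned analyses of gene starts and bases were not run, because only a release 6 gene table was at hand.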

Additional observations from a re-analysis of the deposited data

How the results depend on the processing

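No paired analysis was possible because the lists used here are of the immunoprecipitated libraries only, and no result comes from a test. Depth is unknown, so what it limits cannot be stated. Of 45 alternatives, 17 kept their value and 28 did not. A number of islands was kept within 1.5 times, a share within its interval, and other values within the SD between the replicates. That SD is of 2 values only, 21.6 bp for median width, and the single-replicate values below are the 2 it was made from. For the 133 islands found in both lists it was 130 bp, so the counts of 17 and 28 are a coarse guide. Except where the construction of an alternative explains a value, the cause was not tested. By construction, a gap of 10 kb gave 304 islands, 30 kb gave 108 and 50 kb gave 56. Median widths under these were 3080, 2922 and 2597 bp, with 3212 bp under no width limit, and the median score at 50 kb was 1.26. Under the rule, each replicate list alone gave 172 to 183 islands. Read in a single replicate, the combined-list islands were found in 82.9% to 86.6%, and those found had a median width of 2958.5 to 2989 bp and a median score of 1.65 to 1.79. With replicate regions at or above their median score, 35.4% of islands were in both lists. For the 82 islands whose score reached the combined list's median, it was 100%. For islands at least 1301 bp wide, an alternative chosen after the data were seen, it was 86.4%. Island minus clustered, with clustered regions under 5 kb on both sides, came to -628 bp, -0.10 in score and 3.13 percentage points in both lists, against -404 bp, -0.02 and 5.03. With clustered regions under 2 kb on 1 side it came to 0.058 in score, the opposite sign, and 7.80 points. Weighted to the islands' score bands it was 3.63 points and to their width bands 9.76. Single replicates gave -470.5 to -400 bp, -0.13 to -0.10 in score and 3.80 to 4.84 points. Islands chosen in replicate 2 were found in replicate 1 in 97.8%, against 94.8% the other way.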
